A study of Homo sapiens with 28 samples.

Results

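Laminins are the large secreted glycoproteins that form the first layer of a basement membrane, and 9 genes that encode their chains (LAMA1, LAMA3, LAMA4, LAMA5, LAMB1, LAMB2, LAMB3, LAMC1 and LAMC3) were followed by RNA-seq through every library of the series. The members were taken by name from the 26346 gene symbols in the count files, without regard to their values. The study measured polyadenylated RNA of AN3CA, an established human endometrial carcinoma line, after expression of a construct of ARID1A or ARID1B, the paralogous DNA-binding subunits of the canonical BAF chromatin remodeler. ARID1A was expressed as wild-type (ARID1A WT), as 2 truncation mutants (CBR and delIDR1), as a mutant of the ARID domain (DBDmut), as a hybrid carrying the disordered region of DDX4 (ARID1A DDX4), as an AQG scramble (AQGscram) and as the mutant 42YS. ARID1B was expressed as wild-type (ARID1B WT), as the short deletion mutant M2, and as the deletion mutants A457_G461del, Block13del and Block9del. Each of the 12 constructs had 2 libraries, and cells with an empty vector had 4, which makes 28 libraries in 13 groups. All groups share the line, its endogenous ARID1A and ARID1B transcripts and the absence of any treatment. The promoter of the vectors, the time after their introduction and whether a line is a clone are not given in the sources used here, and neither is the origin of the replicates. If they are not independent cultures, the p-values reflect only how these libraries vary, which may be technical.

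A laminin molecule is a trimer of 1 alpha, 1 beta and 1 gamma chain wound around each other in a coiled coil. The alpha chain carries the globular domains that bind integrins and dystroglycan on the cell surface, while the short arms of the chains link trimers into a sheet and the gamma chain LAMC1 binds nidogen, which ties the sheet to collagen IV. LAMB1 and LAMB2 are alternative beta chains of the broadly expressed trimers with LAMC1, LAMA5 is the common alpha chain of adult epithelial basement membranes, LAMA4 belongs to vessels and muscle, LAMA1 to early embryonic membranes, and LAMA3 and LAMB3 belong to the anchoring laminin of stratified and glandular epithelia. Basement membranes separate the endometrial glands from the stroma, and carcinoma cells make and cross them.

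Each library held between 16568010 and 27867107 reads assigned to genes. Levels are in CPM, reads scaled to a common library size, and "called" means an adjusted p under 0.05 in edgeR's quasi-likelihood test with Benjamini-Hochberg adjustment over the 14220 genes tested. By their percentage of opposite-strand reads the libraries fall into 3 sets, for which no label gives a name: 84.5% to 87.8% in the empty vector replicates 1 and 2, ARID1A WT, CBR, delIDR1 and DBDmut, 98.1% to 98.6% in the empty vector replicates 3 and 4, ARID1A DDX4, ARID1B WT and M2, and 96.7% to 97.9% in the other 5 constructs. The third set holds no empty vector library, so for its constructs the set and the construct cannot be told apart. For the first and second sets, "own pair" below means the 2 empty vector libraries of the same set. ARID1A was at 288 ± 12.5 CPM (SD, n = 4) in the empty vector group and above the range of that group in ARID1A WT (733 ± 43.8, SD, n = 2), CBR (1017 ± 26.1), DBDmut (665 ± 40.6), delIDR1 (589 ± 11.2), ARID1A DDX4 (523 ± 8.1) and 42YS (374 ± 1.32). The libraries labelled AQGscram held 247 ± 52.6 CPM of ARID1A, which overlaps the empty vector, so their label has no check in this transcript. ARID1B rose from 98 ± 6.54 CPM to 3597 ± 225 in ARID1B WT, 4250.4 ± 96.2 in M2, 2236 ± 32.9 in A457_G461del, 883 ± 7.14 in Block13del and 344 ± 0.277 in Block9del. Of the markers of the labelled cell type, HOXA10 (median 18.0 CPM), HOXA11 (11.8) and KRT18 (19.0) were present, whereas PAX8, ESR1 and PGR did not exceed 0.234 CPM in any library and EPCAM did not exceed 0.809. The summed endothelial markers did not exceed 0.585 CPM and the leukocyte markers 0.42. Among 4 fibroblast markers COL1A2 was high throughout (1926 to 3721 CPM), PDGFRA reached 3.46 CPM, and DCN and LUM held 3 reads and 1 read in all 28 libraries.

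Per kb of transcript, AN3CA cells with the empty vector held mostly LAMB2 and LAMC1. LAMB2 stood at 113 ± 4.03 CPM per kb (SD, n = 4), LAMC1 at 66.7 ± 4.3, LAMA5 at 17.1 ± 4.2, LAMB1 at 1.4 ± 0.0585 and LAMC3 at 0.611 ± 0.0577. The other 4 members were close to absent: the empty vector libraries together held 5 reads of LAMA3, 4 of LAMB3 and none of LAMA1 or LAMA4. The filter on low counts kept 7 of the 9 members and left out LAMA1 (40 reads in 28 libraries) and LAMA4 (61 reads). LAMA3 and LAMB3 passed it only through the constructs in which they were high, so that their passing is itself part of that difference. In bulk RNA, fewer cells expressing a chain and less RNA per cell cannot be told apart.

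Against the 4 empty vector libraries, ARID1A WT gave the highest median change of the tested members: LAMB1, LAMB3, LAMA3, LAMA5 and LAMC1 rose, LAMC3 fell, and LAMB2 was not called. These 6 calls of 7 members tested stand against 44.5% of all genes called in that comparison. ARID1B WT gave 4 rises and 1 fall (43.1% of all genes called) and M2 gave 5 rises and 1 fall (47.3%). DBDmut gave 6 rises and 1 fall (35.1%), delIDR1 5 rises (50.1%), CBR 3 rises (53.1%) and ARID1A DDX4 4 rises and 1 fall (39.5%). In the third set, A457_G461del gave 4 rises and 2 falls (39.0%), Block13del 2 of each (39.3%), Block9del 1 rise and 2 falls (39.0%), 42YS 1 rise and 2 falls (33.8%), and the libraries labelled AQGscram 1 rise and 2 falls (24.7%). With shares of all genes this high, the number of members called says little about laminins, and the sizes carry the description. The counts and medians include LAMA3 and LAMB3, which passed the filter only through constructs where they were high, and this can lift them. The other members tested gave log2 changes in ARID1A WT of 5.34 (LAMB1), 1.47 (LAMA5), 0.97 (LAMC1), 0.09 (LAMB2) and -0.53 (LAMC3). In delIDR1 these members gave 1.65, 1.16, 0.18, 0.32 and -0.02 in the same order. The median log2 fold change of the 7 members tested was 1.47 in ARID1A WT, 1.21 in ARID1B WT, 1.16 in delIDR1, 1.04 in DBDmut, 0.90 in M2, 0.49 in ARID1A DDX4 and 0.43 in CBR, and between -0.31 and 0.26 in the third set, while the median of all genes tested lay between -0.07 and 0.00. Against the own pair, 6 members were called in each of ARID1A WT, DBDmut, ARID1B WT and M2, 5 in ARID1A DDX4, 4 in delIDR1 and 3 in CBR. There the share of all genes called was 60.7% for ARID1A WT, 59.0% for DBDmut, 52.0% for ARID1B WT, 53.1% for M2, 50.5% for ARID1A DDX4, 56.3% for delIDR1 and 59.6% for CBR.

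**Figure D1:**
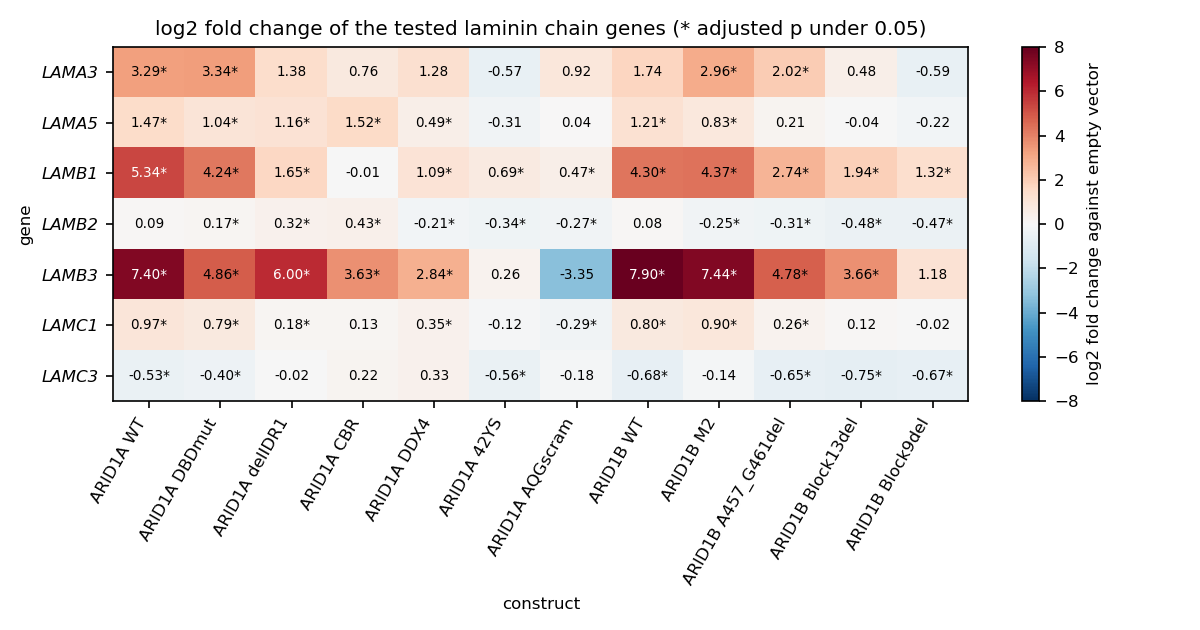
Fitted log2 fold change against the 4 empty vector libraries for the 7 tested laminin chain genes (rows) in the 12 constructs (columns), red for higher and blue for lower, with an asterisk at an adjusted p under 0.05. LAMB1 and LAMB3 hold the deepest red, up to 5.34 and 7.90; the LAMB3 value of the libraries labelled AQGscram comes from 0 reads against 4 and is not a measured fold.

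Among the alpha chains, LAMA5 was the only abundant member. Its level was 157, 151, 239 and 234 CPM in the 4 empty vector libraries, 542 and 541 in ARID1A WT, 564 and 558 in CBR, 437 and 433 in delIDR1, 399 and 403 in DBDmut, 445 and 460.1 in ARID1B WT, 349 and 347 in M2 and 266 and 284 in ARID1A DDX4. Those 7 constructs lay above every empty vector library, and the other 5 overlapped the empty vector range. The log2 fold change was 1.52 ± 0.14 (SE) in CBR (2.87-fold, adjusted p = 2.62e-08), 1.47 ± 0.14 in ARID1A WT (2.77-fold, adjusted p = 3.36e-08) and 0.49 ± 0.14 in ARID1A DDX4 (1.41-fold, adjusted p = 0.00914). The ARID1A DDX4 call was lost without its replicate 2 (0.44, adjusted p = 0.0872). Between the truncation CBR and ARID1A WT, LAMA5 differed by 0.05 ± 0.16 (adjusted p = 0.816), with a 95% interval of -0.29 to 0.39. LAMA5 is also the member whose controls disagree. The empty vector replicates 3 and 4 were 0.62 ± 0.07 higher on the log2 scale than replicates 1 and 2 (adjusted p = 4.61e-08), in a comparison of these pairs in which 58.5% of all genes and 2 of 7 members (LAMA5 up, LAMC1 down) were called. The LAMC1 call between the pairs was lost without empty vector replicate 1, 3 or 4 (adjusted p between 0.0662 and 0.163). Against the own pair the LAMA5 rise was 3.51-fold in ARID1A WT, 3.64-fold in CBR, 2.82-fold in delIDR1, 2.6-fold in DBDmut, 1.91-fold in ARID1B WT, 1.47-fold in M2 and 1.16-fold in ARID1A DDX4, each called. In the third set the direction depended on the control: A457_G461del was 0.55 higher on the log2 scale than replicates 1 and 2 (adjusted p = 2.34e-07) and -0.07 against replicates 3 and 4 (adjusted p = 0.445), and Block13del changed from 0.30 (adjusted p = 0.000679) to -0.32 (adjusted p = 0.000776). No direction for LAMA5 can therefore be given in that set.

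LAMA3, the alpha chain of the epithelial anchoring laminin, came to 146 reads in 25 libraries and never exceeded 0.83 CPM. It had 1, 0, 0 and 4 reads in the empty vector libraries, 13 and 13 in ARID1A WT, 12 and 18 in DBDmut, 10 and 16 in M2, 8 and 6 in A457_G461del, 5 and 4 in ARID1B WT, and between 0 and 6 in each library of the other constructs. The 4 constructs with the most reads lay above every empty vector library in CPM. The count ratio was 10.5 in ARID1A WT (95% counting interval 3.97 to 35.0), 10.9 in DBDmut (4.2 to 36.1), 8.29 in M2 (3.13 to 27.7) and 4.34 in A457_G461del (1.48 to 15.4), all called in edgeR's test. The A457_G461del call (log2 2.02, adjusted p = 0.0448) was lost without either of its replicates or without empty vector replicate 1, 2 or 3, with adjusted p between 0.0736 and 0.212, and against empty vector replicates 3 and 4 alone (1.18, adjusted p = 0.245). Replicate 4 holds 4 of the 5 control reads. Against the own pair the ratio was 4.44 in M2 (1.54 to 17.5), 30.0 in ARID1A WT (4.93 to 1229) and 31.3 in DBDmut (5.2 to 1276), and without replicate 4 the fitted log2 rise in ARID1A WT went from 3.29 to 4.94. Intervals and floors here cover counting error only.

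LAMA1 and LAMA4 had no read in the 4 empty vector libraries. LAMA4 had 8 and 8 reads in ARID1B WT and at most 5 in any other library, and LAMA1 had 5 and 5 in M2 and at most 5 elsewhere. Set against a floor of 3 counts over the empty vector group, LAMA4 was at least 10.5-fold higher in ARID1B WT and LAMA1 at least 5.32-fold higher in M2. With the own pair as control these bounds were 4.5-fold and 2.28-fold. In a fit without the filter on low counts the adjusted p was 0.000168 for LAMA4 in ARID1B WT and 0.00597 for LAMA1 in M2. LAMA4 also passed in ARID1A WT (0.00699), DBDmut (0.00473), delIDR1 (0.00949), CBR (0.0142) and ARID1A DDX4 (0.0496), and LAMA1 in ARID1A DDX4 (0.0323). LAMA4 was lower in M2, with 1 and 1 reads, than in ARID1B WT (adjusted p = 0.0415). At these depths neither chain could be ranked across the remaining constructs.

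The beta chains gave the largest changes. LAMB1 was at 8.25, 8.32, 7.59 and 8.19 CPM in the empty vector libraries, 325 and 330.4 in ARID1A WT, 170 and 166 in M2, 158 and 161 in ARID1B WT, 147 and 160.4 in DBDmut, 55.1 and 53.3 in A457_G461del and 31.4 and 30.7 in Block13del. Lower still were delIDR1 (24.4 and 26.7 CPM), Block9del (19.9 and 20.6), ARID1A DDX4 (17.9 and 16.7), 42YS (12.5 and 13.7), the libraries labelled AQGscram (12.3 and 10.2) and CBR (8.1 and 7.97). Of 12 constructs 11 lay above every empty vector library, and CBR fell inside the empty vector range. In the order of group means the only neighbours whose libraries overlap are ARID1B WT with DBDmut and the empty vector with CBR. The fold change against the empty vector was 40.4 in ARID1A WT (log2 5.34 ± 0.07, SE; adjusted p = 1.7e-21), 20.7 in M2, 19.7 in ARID1B WT, 18.9 in DBDmut, 6.68 in A457_G461del, 3.83 in Block13del, 3.15 in delIDR1, 2.5 in Block9del, 2.13 in ARID1A DDX4, 1.62 in 42YS and 1.38 in the libraries labelled AQGscram (log2 0.47 ± 0.08, adjusted p = 0.000241). CBR gave -0.01 on the log2 scale (adjusted p = 0.908), with a 95% interval of -0.18 to 0.15, which lies below that of delIDR1 (1.51 to 1.80). The 2 pairs of empty vector libraries differed by -0.07 ± 0.11 in LAMB1 (adjusted p = 0.649), and the own-pair values (39.5-fold in ARID1A WT, 20.1-fold in ARID1B WT, 21.2-fold in M2) were close to the pooled values. By log2 fold change LAMB1 ranked 225 of the 14220 genes tested in ARID1A WT, so 1.58% of genes rose further. Within the ARID1B constructs the LAMB1 level went with the level of ARID1B RNA, which fell in the order M2, ARID1B WT, A457_G461del, Block13del and Block9del. Within the ARID1A constructs CBR was the exception, with the most ARID1A RNA and the least LAMB1. By group mean the others fell in the same order for ARID1A RNA and LAMB1. That order was ARID1A WT, DBDmut, delIDR1, ARID1A DDX4, 42YS and the libraries labelled AQGscram. The part of construct RNA in these differences was not tested.

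**Figure D2:**
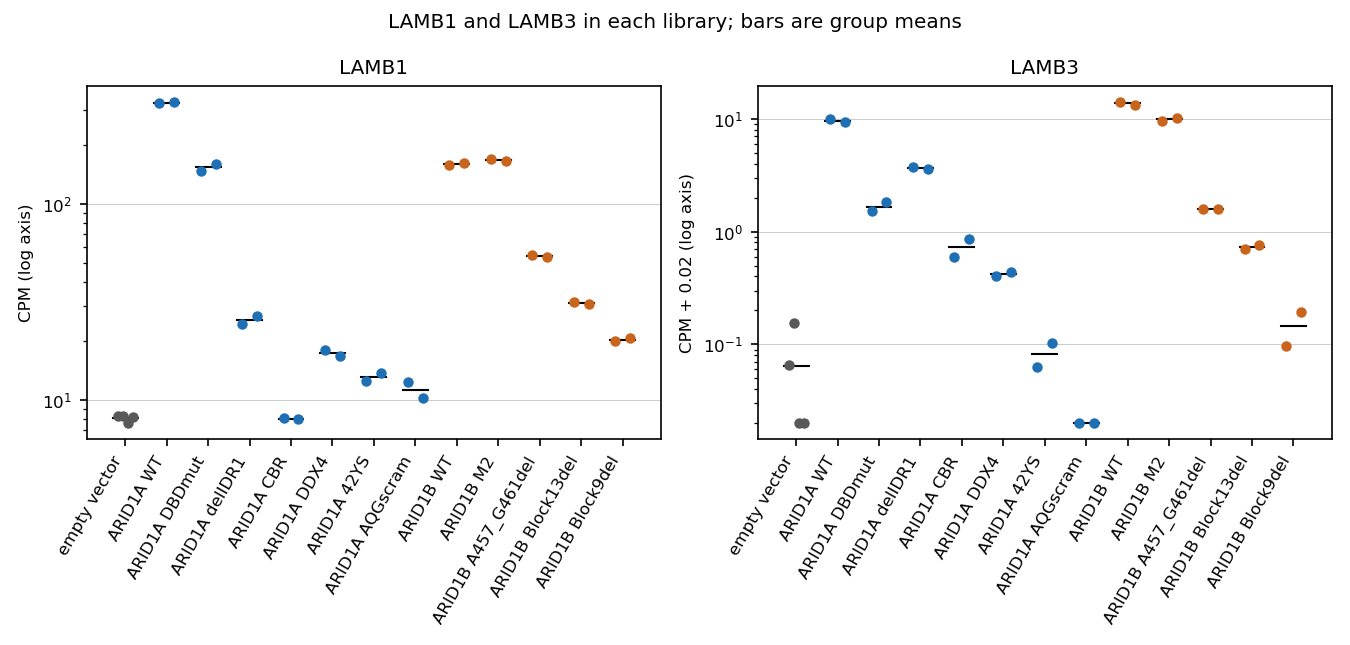
LAMB1 (left, CPM) and LAMB3 (right, CPM with 0.02 added so that 0 can be drawn) on log axes for the 28 libraries by group, grey for the empty vector, blue for ARID1A and orange for ARID1B constructs, with a bar at each group mean. LAMB1 runs from about 8 CPM with the empty vector and CBR to 328 CPM in ARID1A WT, and LAMB3 from 0 reads in the libraries labelled AQGscram to 13.6 CPM in ARID1B WT.

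LAMB3, the beta chain that pairs with LAMA3, went from near absence to a moderate level. Its CPM was 0.0453, 0.135, 0 and 0 in the empty vector libraries, 14 and 13.3 in ARID1B WT, 9.52 and 10.2 in M2, 9.89 and 9.32 in ARID1A WT, 3.71 and 3.55 in delIDR1, 1.49 and 1.8 in DBDmut and 1.55 and 1.57 in A457_G461del. Next came Block13del (0.682 and 0.747), CBR (0.572 and 0.839) and ARID1A DDX4 (0.381 and 0.422), whereas Block9del (0.0775 and 0.174), 42YS (0.0425 and 0.0824) and the libraries labelled AQGscram (0 reads in each) overlapped the empty vector. From read counts the ratio to the 4 empty vector libraries was 264 in ARID1B WT (95% counting interval 102 to 972), 191 in M2 (74.1 to 704), 186 in ARID1A WT (71.9 to 685), 70.4 in delIDR1 (27.0 to 261), 31.9 in DBDmut (11.9 to 120.4), 30.2 in A457_G461del (11.3 to 114) and 13.6 in CBR (4.81 to 53.0). These 7 constructs, Block13del and ARID1A DDX4 were called. All 4 control reads lie in empty vector replicates 1 (1 read) and 2 (3 reads), so the size depends on the control: against the own pair the ratio was 106 in ARID1A WT (41.1 to 391), 40.2 in delIDR1 (15.4 to 149), 18.2 in DBDmut (6.81 to 68.8) and 7.77 in CBR (2.75 to 30.3). Without replicate 2 the fitted log2 rise in ARID1A WT went from 7.40 to 8.67. The own pair of the second set had 0 reads, so LAMB3 there was at least 151-fold higher in ARID1B WT, 109-fold in M2 and 4.46-fold in ARID1A DDX4 (against a floor of 3 counts over that pair). The order of LAMB3 differs from that of LAMB1 in several places. ARID1A WT came first for LAMB1 but behind ARID1B WT and M2 by group mean for LAMB3, delIDR1 held more LAMB3 and less LAMB1 than DBDmut, Block9del held less LAMB3 and more LAMB1 than ARID1A DDX4, and CBR was above the empty vector range in LAMB3 but not in LAMB1.

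LAMB2, the other beta chain of the broadly expressed trimers, moved little. It stood at 671, 643, 628 and 618 CPM in the empty vector libraries, 882 and 837 in CBR, 799 and 804 in delIDR1, 739 and 704 in DBDmut, 692 and 670.5 in ARID1A WT and 669 and 686 in ARID1B WT. It was lower in ARID1A DDX4 (543 and 563 CPM), M2 (535 and 538) and the 5 constructs of the third set (442 to 540). CBR, delIDR1 and DBDmut lay above every empty vector library and 7 constructs below. The rise was 0.43 ± 0.05 on the log2 scale in CBR (adjusted p = 1.12e-06), 0.32 ± 0.05 in delIDR1 and 0.17 ± 0.05 in DBDmut, where the call was lost without its replicate 1 (0.14, adjusted p = 0.162). ARID1A DDX4 fell by 0.21 (adjusted p = 0.00371), a call lost without its replicate 1 (-0.18, adjusted p = 0.0712), M2 fell by 0.25, and the third set fell by 0.27 to 0.48. ARID1A WT and ARID1B WT were not called against the 4 controls (0.09 and 0.08), although against the own pair ARID1B WT passed at 0.12 ± 0.04 (adjusted p = 0.0244).

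Among the gamma chains, LAMC1, shared by most laminins, followed LAMB1 on a smaller scale. It stood at 564, 544, 494 and 501 CPM in the empty vector libraries, 1037 and 1024 in ARID1A WT, 995 and 972 in M2, 909.7 and 925 in ARID1B WT, 900.5 and 918 in DBDmut, 669 and 672 in ARID1A DDX4 and 631 and 625 in A457_G461del. The rest ranged from 384 in 1 of the libraries labelled AQGscram to 600.4 in delIDR1. The rise was 1.96-fold in ARID1A WT (log2 0.97 ± 0.07, adjusted p = 3.5e-10), 1.87-fold in M2, 1.74-fold in ARID1B WT and 1.73-fold in DBDmut, then 1.27-fold in ARID1A DDX4 and 1.19-fold in A457_G461del. CBR was not called (log2 0.13 ± 0.07, adjusted p = 0.106). The small delIDR1 rise (0.18, adjusted p = 0.0352) was not called against the own pair (0.10, adjusted p = 0.125) nor without either of its replicates or empty vector replicate 3 or 4 (adjusted p between 0.0765 and 0.205). The fall in the libraries labelled AQGscram (-0.29, adjusted p = 0.00566) was lost without its replicate 2 (-0.14, adjusted p = 0.157).

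LAMC3, a minor gamma chain at 2 to 4.8 CPM in every library, went the other way. The empty vector libraries held 3.35, 3.55, 4.12 and 3.96 CPM, ARID1A WT 2.28 and 2.86, ARID1B WT 2.14 and 2.5, DBDmut 2.93 and 2.72, 42YS 2.8 and 2.27, A457_G461del 2.2 and 2.55, Block13del 2.1 and 2.32 and Block9del 2.67 and 2.0. All 7 of these lay below the empty vector range and were called, with log2 changes from -0.40 in DBDmut (adjusted p = 0.0435) to -0.75 in Block13del (adjusted p = 0.000903). ARID1A DDX4 (4.8 and 4.61 CPM) lay above the range and was not called (0.33, adjusted p = 0.0575), and M2 (3.29 and 3.47) was not called. Single libraries decided 5 of the 7 falls: the call was lost without replicate 1 of ARID1A WT (-0.38, adjusted p = 0.136), replicate 1 of A457_G461del (-0.55, adjusted p = 0.0504), replicate 2 of 42YS (-0.41, adjusted p = 0.141), replicate 2 of Block9del (-0.48, adjusted p = 0.0608), and, in DBDmut, without either replicate or empty vector replicate 3 or 4 (adjusted p between 0.071 and 0.228) and against the own pair (-0.29, adjusted p = 0.144).

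**Figure D3:**
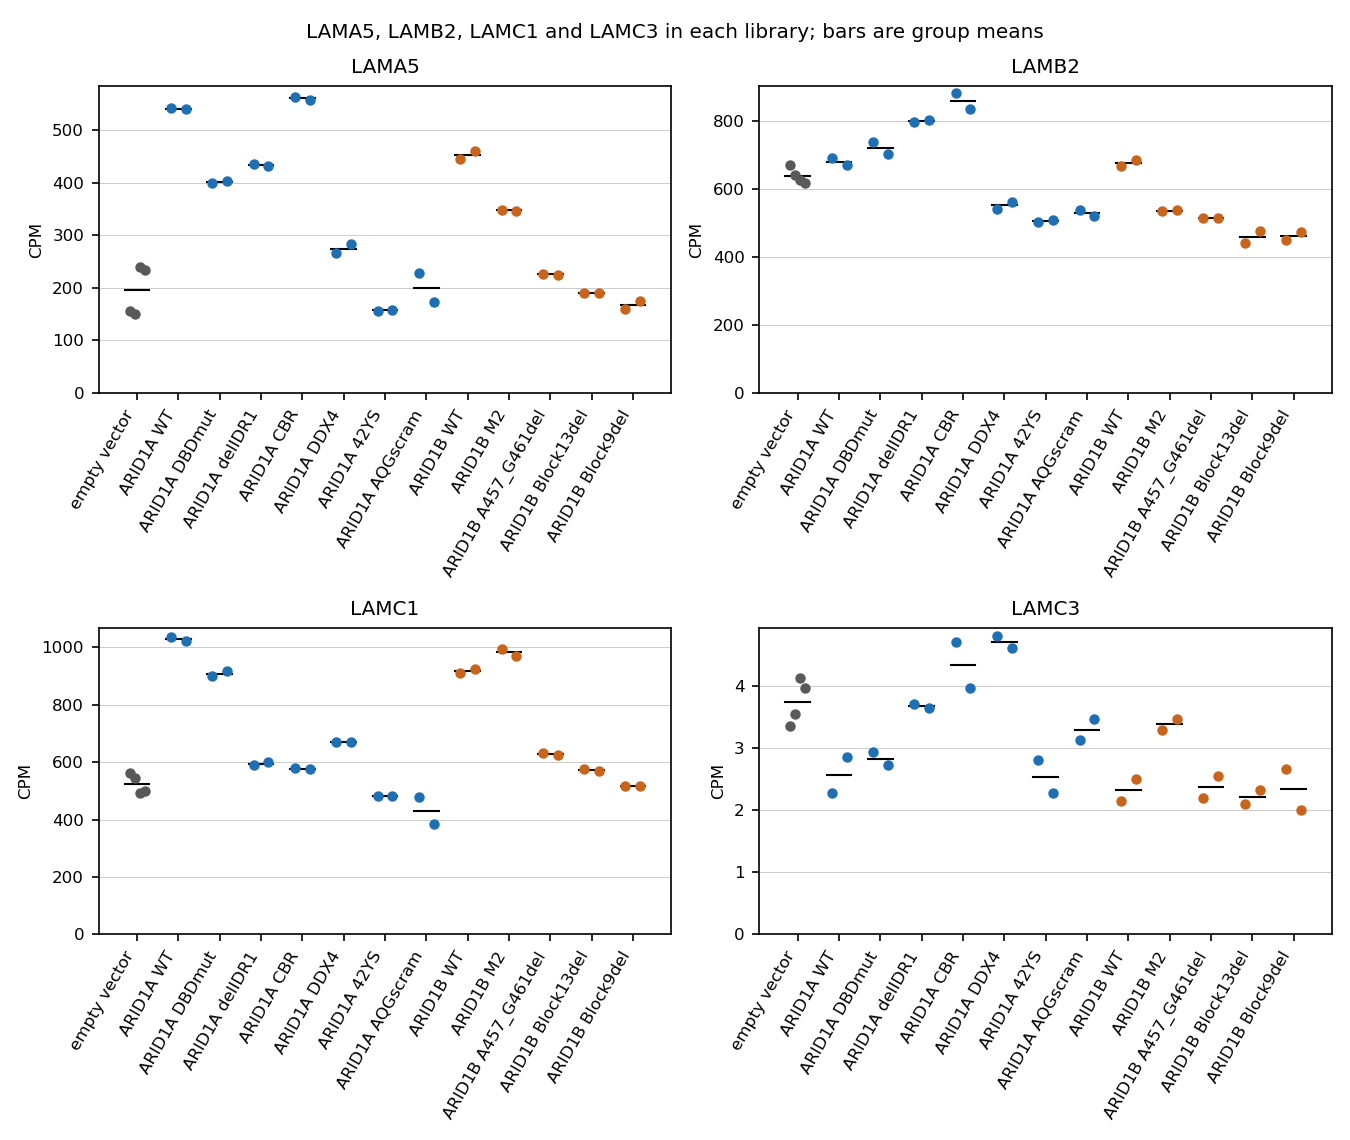
CPM of LAMA5, LAMB2, LAMC1 and LAMC3 in the 28 libraries by group on linear axes that start at 0, grey for the empty vector, blue for ARID1A and orange for ARID1B constructs, with a bar at each group mean. The empty vector libraries of LAMA5 split into 151 and 157 against 234 and 239 CPM, while those of LAMC1 stay between 494 and 564 CPM.

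The ARID1A mutants were also compared with their wild-type. ARID1A RNA differed between them as well. It was 733 CPM in ARID1A WT, 1017 in CBR, 589 in delIDR1, 523 in ARID1A DDX4 and 665 in DBDmut. The mutation and the level of construct RNA therefore cannot be told apart in these comparisons. CBR held less LAMB1 (-5.35 ± 0.09 on the log2 scale, adjusted p = 5.47e-19), LAMB3 (-3.76 ± 0.25), LAMA3 (-2.53 ± 0.72) and LAMC1 (-0.84 ± 0.08) than ARID1A WT, more LAMB2 (0.34 ± 0.06) and LAMC3 (0.75 ± 0.17), and was not called for LAMA5, so 6 of 7 members were called beside 47.5% of all genes. The LAMA3 call was lost without CBR replicate 2 (-1.93, adjusted p = 0.0787). This count and the counts between constructs that follow include LAMA3 and LAMB3. Both passed the filter only through constructs where they were high, which can lift such counts. delIDR1 was called for the same 6 members in the same directions, beside 40.2% of all genes, with LAMB1 at -3.68 ± 0.08, LAMB3 at -1.40 ± 0.20 and LAMC1 at -0.79 ± 0.08. Its LAMA3 fall (-1.91) and LAMC3 rise (0.51) were each lost without any of 3 libraries (adjusted p between 0.0625 and 0.205): delIDR1 replicate 2 and both of ARID1A WT for LAMA3, and both of delIDR1 and ARID1A WT replicate 1 for LAMC3. ARID1A DDX4 held less of all members tested but LAMC3, which was higher (0.86 ± 0.17), so that 7 of 7 were called beside 36.5% of all genes; LAMB1 was 18.9-fold and LAMB3 23.6-fold lower. Its LAMA3 difference was lost without any of the 4 libraries (adjusted p between 0.0522 and 0.114). These libraries come from different sets, and the difference between the own-pair responses gave LAMB1 -4.18 ± 0.14 (adjusted p = 1.58e-18), LAMA5 -1.60 ± 0.10, LAMC1 -0.47 ± 0.08, LAMB2 -0.23 ± 0.06 and LAMC3 0.63 ± 0.22. LAMA3 was called as well (-4.17 ± 1.53), on own pairs of 1 and 4 reads, so that its size is not a measured fold. There was no call for LAMB3 (-0.45 ± 0.74, adjusted p = 0.711), whose own pair for ARID1A DDX4 had 0 reads. By that measure 50.5% of all genes were called. DBDmut differed from ARID1A WT in LAMB1 (2.13-fold lower, log2 -1.09 ± 0.07, adjusted p = 4.91e-09) and LAMB3 (5.82-fold lower, adjusted p = 4.01e-07) only, 2 of 7 members beside 5.62% of all genes.

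M2 against ARID1B WT compares the short deletion with its wild-type. LAMB1 differed by 0.07 ± 0.07 on the log2 scale (adjusted p = 0.565), with a 95% interval of -0.07 to 0.22. LAMB2 was lower in M2 (-0.34 ± 0.06, adjusted p = 0.000744) and LAMC3 higher (0.54 ± 0.17, adjusted p = 0.0445), 2 of 7 members beside 14.3% of all genes, and the LAMC3 call was lost when any of the 4 libraries was left out (adjusted p between 0.0966 and 0.279). LAMB3 was lower in M2 without a call (-0.46, adjusted p = 0.109).

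ARID1A WT against ARID1B WT compares the paralogs. LAMB1 was 2.05-fold higher with ARID1A WT (log2 1.04 ± 0.07, adjusted p = 1.29e-08) and was the 1 member of 7 called, beside 13.5% of all genes. LAMB3 went the other way without a call (-0.51 ± 0.19, adjusted p = 0.0854), and LAMA5 differed by 0.26 ± 0.16 (adjusted p = 0.329). Since the sets differ, the responses against the own pairs were also compared. That difference was 0.97 ± 0.12 for LAMB1 (adjusted p = 4.91e-07) and 0.88 ± 0.10 for LAMA5 (adjusted p = 8.52e-08), both larger with ARID1A WT, and -4.61 ± 1.57 for LAMB3 (adjusted p = 0.0403), beside 41.6% of all genes. The LAMB3 value rests on an own pair with 0 reads and its size is not a measured fold.

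Other pairs of mutants lie within a single set. CBR against delIDR1, both truncations, differed in LAMB1 (3.17-fold lower in CBR, adjusted p = 5.38e-10) and LAMB3 (5.13-fold lower, adjusted p = 1.87e-05), 2 of 7 members beside 6.45% of all genes, while LAMC1 differed by -0.05 ± 0.08 and LAMA5 by 0.37 ± 0.16 without a call. delIDR1 against DBDmut split the beta chains: LAMB1 was 6.02-fold lower (log2 -2.59 ± 0.08, adjusted p = 3.08e-14) and LAMB3 2.2-fold higher (1.14 ± 0.23, adjusted p = 0.000828) in delIDR1. LAMC1 was lower as well (-0.61 ± 0.08), and LAMA3 and LAMB2 completed 5 calls of 7, beside 41.1% of all genes. The LAMA3 call was lost without delIDR1 replicate 2 (-1.42, adjusted p = 0.17) or DBDmut replicate 2 (-1.68, adjusted p = 0.132), and the LAMB2 call (0.15, adjusted p = 0.049) without any of the 4 libraries (adjusted p between 0.0703 and 0.267). The libraries labelled AQGscram and 42YS gave 0 calls of 7 members, beside 15.8% of all genes called. With edgeR 4 of the 7 had an unadjusted p under 0.05, DESeq2 also called 0, and without AQGscram replicate 1 edgeR called 2, LAMB1 among them (-0.37, adjusted p = 0.00524). The difference in LAMB1 was -0.23 ± 0.08, with an interval of -0.40 to -0.05.

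The ARID1B deletions ranked in the order A457_G461del, Block13del, Block9del for both responding beta chains. ARID1B RNA fell in the same order (2236, 883 and 344 CPM), so the deletion and the level of construct RNA cannot be told apart here. LAMB1 was 1.75-fold lower in Block13del than in A457_G461del (adjusted p = 1.29e-06) and 2.67-fold lower in Block9del (adjusted p = 1.24e-10), and 1.53-fold lower in Block9del than in Block13del (adjusted p = 0.000158). LAMB3 was 2.16-fold lower in Block13del (adjusted p = 0.026) and 12.1-fold lower in Block9del (adjusted p = 3.31e-06) than in A457_G461del, and 5.62-fold lower in Block9del than in Block13del (adjusted p = 0.0109). Leaving out any of the 4 libraries ended the first of these LAMB3 calls (adjusted p between 0.131 and 0.175), and leaving out Block13del replicate 1 or 2 or Block9del replicate 1 ended the last (0.055, 0.136 and 0.38). LAMC1 was also lower in Block9del than in A457_G461del (-0.28, adjusted p = 0.0243; between 0.102 and 0.134 without any of the 4 libraries). Of all genes 5.48% were called in the first comparison, 12.6% in the second and 0.471% between Block9del and Block13del, where LAMB1 and LAMB3 were 2 of 7 members.

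Put on a scale per kb of transcript, the beta chain pool changed its makeup. LAMB1 made up 1.23% ± 0.0527 (SD, n = 4) of the summed beta chain level with the empty vector, 31.7% ± 0.764 (SD, n = 2) in ARID1A WT, 23.1% ± 0.408 in M2, 18.4% ± 0.00605 in ARID1B WT, 17.3% ± 1.37 in DBDmut and 9.35% ± 0.192 in A457_G461del. It was 6.23% in Block13del, 4.13% in Block9del, between 2.04% and 3.02% in delIDR1, ARID1A DDX4, 42YS and the libraries labelled AQGscram, and 0.911% in CBR. Group means of LAMB3 reached at most 3.17 CPM per kb. The ratio of summed beta to summed gamma chains was 1.70 ± 0.0564 with the empty vector, 2.06 in CBR and 1.92 in delIDR1, where LAMB2 was high, and 1.74 in the libraries labelled AQGscram. It was 1.48 in 42YS, 1.36 in ARID1A WT, 1.33 in DBDmut, 1.29 in ARID1B WT and Block9del, 1.25 in A457_G461del, 1.18 in Block13del, 1.17 in ARID1A DDX4 and 1.00 in M2. These sums are RNA levels and give no trimer composition.

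**Figure D4:**
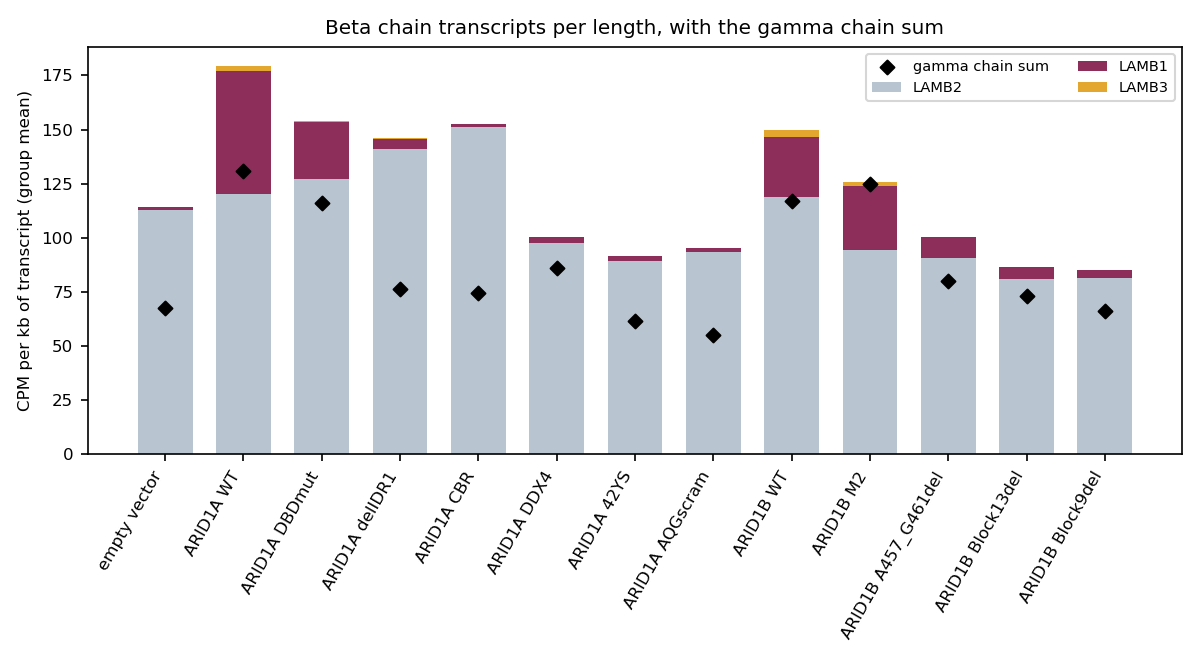
Group means of LAMB2 (grey), LAMB1 (purple) and LAMB3 (yellow) stacked in CPM per kb of the longest coding transcript, with the summed gamma chains as black diamonds. LAMB1 adds 56.8 CPM per kb to the bar of ARID1A WT against 1.4 with the empty vector, and in M2 the diamond reaches the top of the beta bar.

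The promoter windows of the chains that moved most are shown because LAMB1 and LAMB3 both rose against the empty vector in 8 constructs, whereas LAMB3 alone was called in CBR and LAMB1 alone in Block9del, 42YS and the libraries labelled AQGscram. RefSeq windows of GRCh38.p14 were matched by symbol for 7 of 9 members, with 3 starts for LAMB3; each line gives the 250 bases before a start, 5′ to 3′ on the strand of the gene, with capitals for the matches. Capitals in LAMB1 (chr7:108003162-108003411, minus strand) mark the GC box GGGCGG on either strand; in LAMB3 (chr1:209651375-209651624, minus strand) and LAMA3 (chr18:23872770-23873019, plus strand) they mark the GC box and the AP-1 motif TGANTCA.
LAMB1: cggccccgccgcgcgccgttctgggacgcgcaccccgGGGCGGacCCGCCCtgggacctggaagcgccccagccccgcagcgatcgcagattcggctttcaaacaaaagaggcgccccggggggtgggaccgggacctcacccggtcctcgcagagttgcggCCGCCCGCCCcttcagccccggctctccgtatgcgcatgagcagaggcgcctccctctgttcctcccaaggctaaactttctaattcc
LAMB3: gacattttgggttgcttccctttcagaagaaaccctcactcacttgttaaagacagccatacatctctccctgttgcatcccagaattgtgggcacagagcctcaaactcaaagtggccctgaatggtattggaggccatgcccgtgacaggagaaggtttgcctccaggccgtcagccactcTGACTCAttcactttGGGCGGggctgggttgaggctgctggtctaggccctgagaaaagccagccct
LAMA3: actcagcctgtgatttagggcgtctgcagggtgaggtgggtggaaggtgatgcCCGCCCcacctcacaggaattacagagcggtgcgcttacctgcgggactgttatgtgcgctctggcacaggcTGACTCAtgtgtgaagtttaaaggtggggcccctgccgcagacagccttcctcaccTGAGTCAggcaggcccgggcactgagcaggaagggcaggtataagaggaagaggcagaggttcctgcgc
LAMB1 held 4 GC boxes, at 213, 205, 88 and 84 bases before the start, the last 2 overlapping, and no AP-1 match. LAMB3 held 1 AP-1 match at 67 bases at this start and none at its other 2, and LAMA3 held 2, at 125 and 69 bases. Of 35116 windows of this length, 6.57% held an AP-1 match and 42.6% a GC box. LAMA5 held 5 GC boxes and LAMC1 held 3. The TEAD motif GGAATG (11.9% of windows) and the RUNX motif TGTGGT (11.0%) had no match on either strand in any of the 9 member windows, which says only that these letters are not in the 250 bases searched.

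Genes around the laminins were taken from lists of their receptors, partners and modifiers. Of 9 receptor genes tested (10 listed), ARID1A WT raised 6 and lowered none, beside the same 44.5% of all genes. ITGA3, the integrin alpha chain that binds LAMA3 and LAMA5 laminins, rose by 1.84 ± 0.16 on the log2 scale and ITGA6, another laminin-binding alpha chain, by 1.30 ± 0.08. CBR raised 7 and lowered 1 (53.1% of all genes called), led by BCAM, the Lutheran receptor for the LAMA5 chain (1.83 ± 0.08, from 143 ± 15.6 CPM to 508 ± 19.2), and ITGA7 (1.66 ± 0.18); RPSA fell by 0.61. ARID1B WT raised ITGA6 (1.23 ± 0.08) and ITGA3 (0.95 ± 0.16) among 3 and lowered SDC1 (-0.43), beside 43.1% of all genes; against the own pair it raised 6 and lowered 2, beside 52.0%. ARID1A DDX4 raised 5 (39.5% of all genes called), led by ITGA7 (1.02 ± 0.18) and BCAM (0.57 ± 0.08). The controls disagree here: 2 of the 9 receptors were higher and 6 lower in empty vector replicates 3 and 4 than in 1 and 2, beside 58.5% of all genes. Against the own pair ARID1A WT raised 7 and lowered none (60.7%), and CBR raised 6 and lowered 1 (59.6%). By the same control ARID1A DDX4 raised 5 and lowered 1 (50.5%). In the third set between 0 and 2 receptors rose and between 1 and 3 fell in each construct, beside 24.7% to 39.3% of all genes.

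Of 8 basement membrane partners tested (13 listed), all 8 rose in ARID1A WT (44.5% of all genes called), 5 each in ARID1B WT (43.1%), DBDmut (35.1%), delIDR1 (50.1%) and M2 (47.3%), and 4 in CBR (53.1%). Against the own pair 8 rose in ARID1A WT, 7 in ARID1B WT and M2 and 6 in CBR, delIDR1 and DBDmut, with 1 fall in DBDmut. There the share of all genes called was 60.7% for ARID1A WT, 52.0% for ARID1B WT and 53.1% for M2. For CBR, delIDR1 and DBDmut it was 59.6%, 56.3% and 59.0%. Against the 4 controls COL15A1 fell in ARID1A DDX4 (-3.82), where COL4A5, HSPG2, COL18A1 and NTN4 rose. Against the own pair COL15A1 was not called there (1.44, adjusted p = 0.366). In Block9del AGRN (-0.31), COL15A1 (-3.41) and COL18A1 (-0.78) fell against the 4 controls and NTN4 (5.10) rose, beside 39.0% of all genes called. COL15A1 and HSPG2, named for this after their values were seen, differed between the empty vector pairs by -6.14 and 1.12. AGRN (0.36), COL18A1 (-0.38) and COL4A6 (-1.11) were also called between the pairs. Block9del has no own pair, so its falls in AGRN, COL15A1 and COL18A1 could not be checked against controls of its set. NTN4, a netrin that interferes with laminin assembly, had 0 reads in the 4 empty vector libraries and stood at 2.66 ± 0.0488 CPM in ARID1A WT and 1.01 ± 0.179 in ARID1B WT. COL4A2, a collagen IV chain, rose by 3.23 ± 0.70 in ARID1A WT, and COL4A6, another, led in ARID1B WT after NTN4 (1.53 ± 0.32). In CBR COL4A6 (2.19 ± 0.30) and AGRN (1.00 ± 0.09) led, and NTN4 was at 0.0453 CPM. The 5 hemidesmosome genes rose in ARID1A WT against the 4 controls (44.5% of all genes called) and 4 of them against the own pair (60.7%), where PLEC was not called (0.23, adjusted p = 0.062). They were led by COL17A1, which spans the membrane at the anchoring plaque (0.0717 ± 0.0933 to 0.755 ± 0.323 CPM), and DST (1.5 ± 0.12). Against the 4 controls COL17A1 also rose in ARID1A DDX4 (3.62 ± 0.56), M2 (3.67 ± 0.56) and ARID1B WT (2.63 ± 0.67). It rose as well in CBR (2.47 ± 0.67), delIDR1 (2.44 ± 0.67) and A457_G461del (2.12 ± 0.69), and was not called in the remaining constructs. The integrin chain ITGB4, counted with the receptors and named here after its value was seen, was not called in ARID1A WT (-0.03, adjusted p = 0.96). LAMA2 had 38 reads and LAMB4 had 7 in all libraries.

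Of 11 genes that build the laminin-binding sugar of dystroglycan, ARID1A WT raised 4 and lowered 1, about the 44.5% called among all genes, led by B4GAT1 (0.81 ± 0.12) and POMGNT1 (0.79 ± 0.06), with TMEM5 at -0.41. CBR raised 7 and lowered 1 (53.1% of all genes called), led by POMGNT2 (1.42 ± 0.09) and POMK (0.82 ± 0.33), with LARGE at -0.87. Of 3 proteases that cleave laminins, MMP2 went from 0.114 ± 0.0534 CPM to 87.4 ± 1.86 in ARID1A WT and 227 ± 3.97 in ARID1B WT, BMP1 rose by 0.86 ± 0.08 and MMP14 fell by 0.95 in ARID1A WT. The fibroblast marker PDGFRA rose by 5.26 in ARID1A WT and 4.54 in ARID1B WT on the log2 scale. COL1A2 rose by 0.43 and 0.36, while DCN and LUM stayed near 0. Against the 4 controls 1 of the 2 fibroblast markers tested rose over 2-fold in every construct, beside 24.7% to 53.1% of all genes called. The keratins KRT18 (1.97) and KRT8 (3.25) also rose in ARID1A WT, while EMX2 fell by 2.21 and EPCAM was not called. KRT8 and EMX2 differed between the empty vector pairs by -1.69 and -0.73, and against the own pair ARID1A WT gave 2.71 and -2.51. HOXA10 and HOXA11 differed between the empty vector pairs by 1.32 and 1.19. In ARID1A WT HOXA10 and HOXA11 were not called against the 4 controls and were higher than the own pair by 0.57 and 0.60. The part of these markers in the laminin changes was not tested.

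Across the 13 group means of log2 CPM, members differed in what they resembled. LAMB1 and LAMC1 were correlated at Pearson r = 0.92, LAMB1 and LAMB3 at 0.85 and LAMA5 and LAMB2 at 0.83, whereas LAMB1 and LAMB2 gave 0.10 and LAMB1 and LAMC3 -0.44. Among 597 genes with a range of at least 2 on the log2 scale, the closest to LAMB1 were STK17A (0.976), PRSS23 (0.974) and ARHGAP29 (0.973), and to LAMC1 FHL2 (0.979), DDAH1 (0.974) and CD68 (0.969). For LAMB3 they were BCAN, ARHGAP26 and KRT80 (0.957 to 0.96), for LAMA5 CSPG4, IFITM2 and RBM47 (0.965 to 0.973) and for LAMB2 ECEL1, PBXIP1 and ARHGAP23 (0.949 to 0.983). LAMA3 was closest to DENND5B, MYLK and NEDD9 (0.942 to 0.948), and LAMC3 to C1S, OLFM2 and LRRC4B (0.831 to 0.851). The points share libraries, sets and depth, and the values describe these 13 means only.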

How the data were processed

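Polyadenylated RNA of 28 AN3CA libraries was sequenced. The authors deposited raw read counts per gene for each library, with columns for unstranded reads and for each strand. The submitters' processing notes name STAR 2.5.2b, Bowtie2 2.29, bcl2fastq and the build hg19; their roles and the annotation are not given in the sources used here. Rows naming no gene (21.6% to 36.3% of reads) were left out. The opposite-strand column was used, since it held most reads.

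Each library held between 16568010 and 27867107 reads on genes. edgeR 4.0.16 (R 4.3.3) fitted 1 quasi-likelihood model over 13 groups with TMM scaling and filterByExpr, giving 14220 genes tested and Benjamini-Hochberg adjusted p-values. CPM uses the TMM-scaled library sizes. A second fit split the empty vector into 2 pairs. Low counts were compared as ratios with 95% exact counting intervals, or against a floor of 3 counts. CPM per kb divides by the longest coding transcript in GENCODE v29. The script was tested on simulated data. DESeq2 1.42.0, other scalings, filters, controls, a replicate block and leaving out each library were tried.

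Named are all 9 members, for every other list up to 2 called genes each way with the largest change in the contrasts described, and 3 genes of closest pattern per member. Members, lists and tests were chosen with earlier results of these data known.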

Additional observations from a re-analysis of the deposited data

Results flagged for a closer look

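The response of LAMB1 to ARID1A WT exceeded its response to ARID1B WT when each was measured against its own empty vector pair: the difference was 0.97 on the log2 scale (edgeR adjusted p = 4.91e-07). For LAMA5 the same difference was 0.88 (adjusted p = 8.52e-08), and for LAMB3 it was -4.61 (adjusted p = 0.0403), with 0 LAMB3 reads in the empty vector replicates 3 and 4. The response to ARID1A DDX4 differed from that to ARID1A WT by -4.18 for LAMB1, -1.60 for LAMA5, -0.47 for LAMC1, -0.23 for LAMB2 and 0.63 for LAMC3, each by the test of the difference itself. For LAMA3 it was -4.17, on own pairs of 1 and 4 reads. For LAMA3 and LAMB3 the size is not a measured fold. The constructs in each of these differences come from different sets of libraries, and the part of the set was not tested beyond the use of own pairs. No empty vector library stood far enough from the other 3 in any member to be singled out by Dixon's ratio, which was at most 0.822 (LAMB1) and stayed under its 95% critical value.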

How the results depend on the processing

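Of 1322 alternative values for 100 log2 fold changes of single members (those called with all libraries, and LAMB1 throughout), 1213 kept their direction and side of the threshold, 101 were no longer called, 2 became called and 6 changed sign. All 6 belong to LAMB1 in CBR against the empty vector (-0.01), which was not called in any of them: 0.02 after a stricter filter (mean log2 CPM no lower than 1) and with empty vector replicates 3 and 4 alone, 0.01 with DESeq2, RLE size factors and only the groups compared, and 0 without empty vector replicate 2 (-0.04 to 0 over each library left out). Other results not called with all libraries lie outside these 100, such as LAMA5 in Block13del, whose sign changed with the control pair. Of 324 alternative counts of members called, 283 stayed within 1.5 times the main count.

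With only the groups compared in the fit, which has fewer libraries to estimate the spread, the count became 4 for DBDmut, 1 for ARID1A DDX4, 0 for AQGscram, 1 for 42YS and 2 for A457_G461del against the empty vector, 4 for DBDmut against ARID1A WT, 1 for Block9del against Block13del, and 5 for each of M2 against ARID1B WT, ARID1A WT against ARID1B WT, CBR against delIDR1, Block13del against A457_G461del and Block9del against A457_G461del. The control pair set 5 calls for AQGscram (replicates 1 and 2) and 5 for Block9del (replicates 3 and 4). DESeq2 gave 1 for M2 and 2 for ARID1A WT against ARID1B WT, own-pair responses gave 3 for the latter, and reads without regard to strand gave 1 for AQGscram against 42YS. Beyond the cases whose construction is named, the cause was not tested.

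Replicate numbers did not pair the samples: same-numbered libraries correlated at -0.25 to 0.27 over 66 pairs of groups, with 4 over 0.1. With the replicate block the count was 5 for AQGscram against the empty vector, 4 for DBDmut against ARID1A WT, 4 for M2 and 5 for ARID1A WT against ARID1B WT, 2 for AQGscram against 42YS, and 4 for Block13del and 6 for Block9del against A457_G461del.

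Leaving out 1 library gave 1 call for M2 against ARID1B WT throughout, 3 to 4 for delIDR1 against DBDmut, 0 to 2 for AQGscram against 42YS, 1 for Block13del against A457_G461del throughout, 1 to 2 for Block9del against Block13del and 1 to 2 between the empty vector pairs. Depth limits LAMA1, LAMA3, LAMA4 and the controls of LAMB3, which rest on few reads.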
